A study of Mus musculus with 21 samples.

Results

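The enzymes that write and erase methyl groups on histones and DNA were followed by RNA-seq through the chemical conversion of mouse fibroblasts to hepatocyte-like cells. Members were protein-coding genes taken by name: the Dnmt1 and Dnmt3 genes, Tet1 to Tet3, the Kmt2 and Kmt5 genes, Setd genes with a number, Suv39h1 and Suv39h2, Ehmt1 and Ehmt2, Ezh1 and Ezh2, Eed, Suz12, Dot1l, Nsd1, Smyd3, the numbered Kdm genes other than Kdm5d, and the Prmt genes. They came to 60 of the 54532 genes counted. The rule used names alone.

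The 21 libraries formed 7 groups, each described by its labels as wild type. NSF-CiHeps (n = 3) began as neonatal skin fibroblasts and C6F5UE-C6F(L)V cells (n = 3) as embryonic fibroblasts, and both received C6F5UE, which combines 20 µM CHIR99021 (a GSK3 inhibitor), 616452 at 10 µM (which blocks the TGF-beta receptor), 50 µM Forskolin (an adenylyl cyclase activator), 1 µM CH55 (a retinoic acid receptor agonist), 0.05 µM UNC0638 (an inhibitor of the H3K9 methyltransferases G9a and GLP) and 5 µM EPZ004777 (a DOT1L inhibitor). On day 4 these cells were moved to hepatocyte medium, which holds dexamethasone, nicotinamide, FGF4, HGF and EGF, in which CHIR99021, 616452 and Forskolin were kept unchanged for 4 days and then lowered to 3, 2 and 2 µM (a schedule named C6F(L)), plus 50 µg/ml vitamin C. C6FAE-C6F(L) cells (n = 4) were embryonic fibroblasts given C6FAE, in which 0.05 µM AM580, another retinoic acid receptor agonist, took the place of CH55 and UNC0638, before the same C6F(L) schedule without vitamin C. C6FAE cells (n = 3) received only the C6FAE cocktail and C6F(L) cells (n = 3) only the hepatocyte medium schedule, both on embryonic fibroblasts. Primary hepatocytes (pHeps, n = 2) were cultured for 2 days, and embryonic fibroblasts in serum medium (MEF, n = 3) were the starting cells. The labels give no harvest day for the treated cells, nor do they say whether replicate libraries stem from independent cultures or animals, so the p-values measure only the spread between these libraries, which may be technical.

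Methyltransferases take the methyl group from S-adenosylmethionine and place it on lysines or arginines of histone tails or on cytosine. H3K4 and H3K36 methylation is typical of active genes, whereas H3K9 and H3K27 methylation and DNA methylation mark silenced chromatin. The TET enzymes, which oxidise 5-methylcytosine, and the JmjC demethylases need iron and 2-oxoglutarate, and vitamin C supports their activity. In the liver the same enzymes take part in switching genes on and off as hepatocytes mature. Cells that change identity have to pass these marks, which is why inhibitors of DOT1L and of G9a and GLP are used in reprogramming cocktails.

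Deposited counts summed to between 9180939 and 12319883 per library, and members took between 0.234% and 0.44% of them. One library stood apart: C6FAE-C6F(L) replicate 4 gave 3.49% of its counts to ribosomal proteins, against 7.28% to 8.9% in its 3 companion libraries, so results on that group are also given without it where it changes them. Levels are given as CPM, counts scaled to a common library size. Marker genes only partly followed the labels. The summed level of 21 hepatocyte genes was 507 to 3040 CPM in NSF-CiHeps, 25800 to 33900 CPM in C6F5UE-C6F(L)V, 30100 to 32400 CPM in pHeps and 638 to 2150 CPM in C6FAE-C6F(L), against 101 to 136 CPM in MEFs. The MEF libraries also held 4320 to 5400 summed CPM of 12 macrophage genes and pHeps 1060 to 1320 CPM, while every other library held at most 137 CPM. The C6FAE-C6F(L) libraries held 11300 to 19900 summed CPM of 10 keratinocyte genes, against at most 208 CPM elsewhere. The part of these other cell types in the values below was not tested, and in bulk RNA fewer cells of a type and less RNA per cell cannot be told apart. The groups came in 3 separate count tables, so where C6F5UE-C6F(L)V is compared with C6FAE-C6F(L), NSF-CiHeps with C6F5UE-C6F(L)V, or pHeps with MEFs, table and group cannot be told apart.

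The promoters of 6 members on which the results turn are printed first. RefSeq (GRCm38.p6) gave a start site for 49 of the 60 members, with 68 starts in all. Dnmt3c, Kdm2a, Kdm3b, Kdm4b, Kdm5a, Kdm6b, Kmt2b, Kmt2e, Nsd1, Setd1b and Smyd3 had none there. Each window runs from 250 bases before the start to 50 bases after it, 5′ to 3′ on the gene's strand, which is the minus strand for all 6. Suv39h1 (chrX:8074312-8074611), Tet1 (chr10:62887275-62887574) and Prmt8 (chr6:127769106-127769405) are shown because their RNA moved most, and capitals mark CG dinucleotides. Suv39h2 (chr2:3474937-3475236) is shown with a cAMP response element, TGACGTCA, in capitals. Dnmt1 (chr9:20952574-20952873) and Ezh2 (chr6:47594981-47595280) are shown with an E2F motif, TTTGGCGC, in capitals. Only the Suv39h2 window reaches past the annotated 5′ end of its gene, and the other windows lie inside the annotated gene. Suv39h1 and Prmt8 had 2 starts each and Dnmt1 had 3. For these genes the window shown is the start farthest downstream, which also held the most CG dinucleotides. The annotated Dnmt1 gene begins at 20959888.
Suv39h1: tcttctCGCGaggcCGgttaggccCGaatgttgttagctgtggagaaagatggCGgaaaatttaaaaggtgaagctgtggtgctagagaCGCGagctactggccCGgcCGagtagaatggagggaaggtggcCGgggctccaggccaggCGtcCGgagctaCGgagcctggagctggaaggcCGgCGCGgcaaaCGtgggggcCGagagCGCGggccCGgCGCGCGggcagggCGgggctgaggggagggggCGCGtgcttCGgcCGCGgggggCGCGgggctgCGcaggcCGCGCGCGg
Tet1: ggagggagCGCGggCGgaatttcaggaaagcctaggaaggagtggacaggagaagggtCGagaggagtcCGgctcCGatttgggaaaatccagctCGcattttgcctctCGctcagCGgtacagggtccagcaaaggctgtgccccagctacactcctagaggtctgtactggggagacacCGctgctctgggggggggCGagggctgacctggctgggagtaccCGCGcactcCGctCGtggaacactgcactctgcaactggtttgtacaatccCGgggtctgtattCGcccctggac
Prmt8: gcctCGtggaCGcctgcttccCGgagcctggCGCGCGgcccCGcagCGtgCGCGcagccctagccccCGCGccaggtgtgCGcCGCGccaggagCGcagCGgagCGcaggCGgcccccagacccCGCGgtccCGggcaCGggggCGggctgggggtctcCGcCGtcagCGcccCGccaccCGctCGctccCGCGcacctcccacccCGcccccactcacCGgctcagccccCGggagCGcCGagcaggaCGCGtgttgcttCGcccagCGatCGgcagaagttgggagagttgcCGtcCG
Suv39h2: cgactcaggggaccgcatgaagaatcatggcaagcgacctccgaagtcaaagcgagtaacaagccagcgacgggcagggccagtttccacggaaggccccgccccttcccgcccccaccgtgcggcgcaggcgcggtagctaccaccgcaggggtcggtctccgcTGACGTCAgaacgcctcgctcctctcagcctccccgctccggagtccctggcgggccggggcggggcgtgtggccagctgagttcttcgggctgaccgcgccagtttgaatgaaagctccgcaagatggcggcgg
Dnmt1: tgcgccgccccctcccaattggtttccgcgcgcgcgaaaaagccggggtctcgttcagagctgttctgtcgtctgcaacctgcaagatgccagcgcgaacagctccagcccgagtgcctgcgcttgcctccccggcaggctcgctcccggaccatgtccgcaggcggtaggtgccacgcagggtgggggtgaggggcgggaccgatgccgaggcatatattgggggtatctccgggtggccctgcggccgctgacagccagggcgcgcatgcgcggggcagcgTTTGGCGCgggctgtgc
Ezh2: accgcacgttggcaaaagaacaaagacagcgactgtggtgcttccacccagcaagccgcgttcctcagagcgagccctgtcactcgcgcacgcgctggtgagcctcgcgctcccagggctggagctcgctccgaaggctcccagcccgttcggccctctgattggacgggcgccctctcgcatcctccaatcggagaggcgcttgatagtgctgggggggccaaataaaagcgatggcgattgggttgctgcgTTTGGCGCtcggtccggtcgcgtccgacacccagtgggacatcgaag

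Suv39h1 had 37 CG dinucleotides in the window shown and 15 at its other start, Prmt8 had 44 and 43, and Tet1 had 17. Over the members' starts the median was 26.5, ranging from 0 to 65, and over all 32851 mouse windows it was 7, ranging from 0 to 67. The cAMP response element, searched on both strands, was in the windows of Suv39h2 and Prmt9, which is 2.94% of the members' windows against 1.79% of all windows. TTTGGCGC was in 1 of the 3 windows of Dnmt1, the one shown, and in that of Ezh2, again 2.94% against 0.514% of all. The other E2F form, TTTCCCGC, was in those of Kmt5c and Suz12 (2.94% against 1.07%), and the TCF/LEF motif CTTTGAT only in that of Kmt2d (1.47% against 3.73%). A match is a run of letters and does not show binding.

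A gene was called higher or lower when the adjusted p of edgeR's quasi-likelihood test, adjusted by Benjamini-Hochberg over all genes tested, was below 0.05 and its log2 fold change reached 1 in either direction. The members' calls are read against the share of all tested genes called by the same rule. In C6FAE over MEF, 5 members were called higher and 1 lower of 57 tested (10.5%), whereas 30.4% of all genes were called, 15.6% higher and 14.7% lower. In C6F(L) over MEF it was 2 higher and 1 lower (5.26%), against 23% of all genes, 10.6% higher and 12.4% lower. In C6FAE-C6F(L) over MEF it was 6 higher and 3 lower (15.8%), against 37.4%, 18.2% higher and 19.3% lower. C6FAE-C6F(L) over C6FAE had 2 higher and 6 lower (14%), against 33.7%, 16.1% higher and 17.6% lower. C6FAE-C6F(L) over C6F(L) had 1 higher and 3 lower (7.02%), against 32%, 15.5% higher and 16.5% lower. C6FAE over C6F(L) had 8 higher and 1 lower (15.8%), against 24%, 13.6% higher and 10.4% lower. These 6 comparisons share libraries with one another. All but C6FAE-C6F(L) over MEF count Prmt8, which passed the filter on low counts through the C6FAE libraries, so its calls there carry no weight.

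In the other tables, C6F5UE-C6F(L)V over pHeps had 9 members higher and 4 lower of 56 tested (23.2%), against 33.1% of all genes, 18.4% higher and 14.7% lower. C6F5UE-C6F(L)V over C6FAE-C6F(L) had 4 higher and 12 lower of 58 (27.6%), against 42.4%, 19.7% higher and 22.8% lower. Among these 4 was Kdm4d, which passed the filter on low counts only through C6F5UE-C6F(L)V libraries, so that call carries no weight. NSF-CiHeps over C6F5UE-C6F(L)V had 2 higher and 1 lower (5.17%), against 28.4%, 12.3% higher and 16.2% lower. pHeps over MEF had 6 higher and 20 lower (44.8%), against 51.6%, 24.4% higher and 27.2% lower. By this rule the share of members called lay below that of all genes in each of the 10 comparisons. That is given as a description with no test, and it did not hold by adjusted p alone, as given below. Without C6FAE-C6F(L) replicate 4, C6FAE-C6F(L) had 4 members higher and 3 lower over MEF, 3 and 6 over C6FAE and 1 and 3 over C6F(L), and C6F5UE-C6F(L)V had 5 and 13 over C6FAE-C6F(L). Of all genes, 6672, 5908 and 5815 of 16433 and 7806 of 18559 were then called. With all libraries these were 6190, 5573 and 5294 of 16535 and 7893 of 18605. Of the 60 members, 39 were called in at least 1 comparison, 19 were tested and never called, and 2 (Dnmt3c and Dnmt3l) did not pass the filter on low counts in any fit. The 19 were Dot1l, Eed, Ehmt1, Ehmt2, Kdm1a, Kdm2a, Kdm4a, Kdm4b, Prmt1, Prmt3, Prmt5, Prmt6, Prmt7, Prmt9, Setd1a, Setd3, Setd5, Smyd3 and Suz12, some of which passed both thresholds under an alternative, as Prmt5 and Suz12 did in C6FAE over MEF with scaling by library size alone.

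By adjusted p alone, with no minimum fold, the share of members lay above that of all genes in some comparisons and below it in others. It was 56.1% of members against 54.2% of all genes for C6FAE over MEF, and 35.1% against 43.1% for C6F(L) over MEF. For C6FAE-C6F(L) it was 56.1% against 63.2% over MEF, 59.6% against 57.2% over C6FAE and 47.4% against 55.6% over C6F(L). C6FAE over C6F(L) had 54.4% against 45.1%. For C6F5UE-C6F(L)V it was 57.1% against 57.7% over pHeps and 74.1% against 63.4% over C6FAE-C6F(L). NSF-CiHeps over C6F5UE-C6F(L)V had 58.6% against 49.1%, and pHeps over MEF 79.3% against 67.3%. No test was run on these shares. The text below keeps to the calls with the minimum fold.

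**Figure D1:**
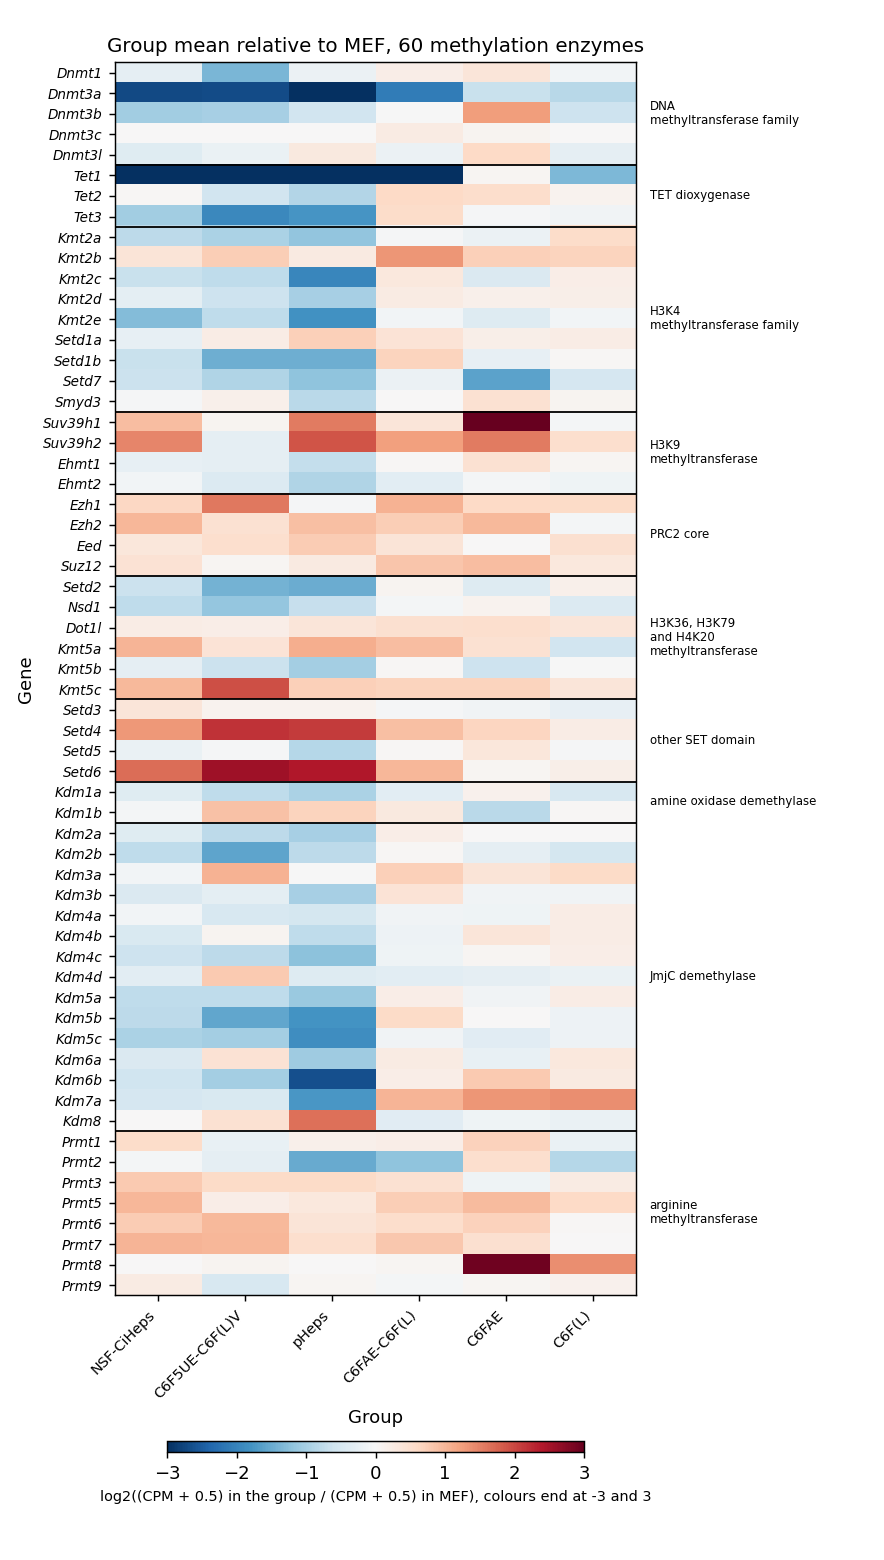
Mean level of each of the 60 members in each group relative to MEFs, as the log2 ratio of CPM with 0.5 added, with members ordered by role and colours ending at -3 and 3. Most rows are pale, while Suv39h1 and Prmt8 are red in C6FAE, and Tet1 and Dnmt3a are blue in every group that passed through both steps and in pHeps.

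The most abundant change among the members was in an H3K9 methyltransferase. Suv39h1, which places H3K9 trimethylation on constitutive heterochromatin (ENSMUSG00000039231, chrX:8061171-8074760, minus strand), had 240, 219 and 234 CPM in C6FAE libraries, against 13.9, 14.7 and 16.1 CPM in MEFs. The groups stood far apart, and the log2 fold change was 3.96 ± 0.16 (SE; adjusted p = 7.31e-09, edgeR quasi-likelihood test). In the other cells it was back near the MEF level: 17.2, 17, 22.6 and 20.7 CPM in C6FAE-C6F(L) libraries and 17, 14 and 11.5 CPM in C6F(L) libraries. C6FAE-C6F(L) thus fell below C6FAE (log2 fold change -3.57 ± 0.14, adjusted p = 4.68e-09), and C6FAE rose above C6F(L) (4.03 ± 0.16, adjusted p = 1.7e-08). These calls held in every alternative run.

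Per kilobase of the deposited gene length, Suv39h1 reached a mean of 43.8 ± 2.01 CPM per kb in C6FAE (SD, n = 3), where only Prmt1 was higher among the members (52.2 ± 1.53 CPM per kb) and level with Ehmt2 (43.8 ± 2.05 CPM per kb). It ranked 19 of 16535 genes by adjusted p in C6FAE over MEF, and 671 of the 2583 genes called higher by fold change. An antisense gene, Gm14820, overlaps 14.6% of its exon bases and averaged 0.302 CPM in C6FAE and 0 in MEFs, well under the level of Suv39h1. Of its neighbours on the chromosome, Hdac6 rose as well in C6FAE over MEF (log2 fold change 1.75), and Glod5 was called higher with a mean of 1.54 CPM in C6FAE and 0 in MEFs, whereas Was fell by 5.2 on the log2 scale and Wdr13 had a value of -0.35.

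In the later cells Suv39h1 followed another order. It had 13.4, 13.9 and 20 CPM in C6F5UE-C6F(L)V libraries, against 44 and 46.2 CPM in pHeps, and fell by 1.52 ± 0.18 on the log2 scale (adjusted p = 1.42e-05). pHeps were above MEFs (log2 fold change 1.59 ± 0.2, adjusted p = 1.27e-06). NSF-CiHeps had 24.1, 25.2 and 36.5 CPM, all above the C6F5UE-C6F(L)V libraries, but the change of 0.86 was under the fold threshold.

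Suv39h2, the second enzyme of this pair, was low throughout and was called in 7 of 10 comparisons, more than any other member. It had 5.82, 6.85 and 11 CPM in NSF-CiHeps, against 1.96, 2.45 and 1.65 CPM in C6F5UE-C6F(L)V cells (log2 fold change 1.96 ± 0.41, adjusted p = 0.000757). C6F5UE-C6F(L)V was also below pHeps, which had 12.7 and 8.67 CPM (-2.4 ± 0.36, adjusted p = 9.63e-05). These groups did not overlap. C6FAE libraries had 9.2, 8.42 and 8.02 CPM and C6FAE-C6F(L) libraries 7.19, 7.71, 7.7 and 4.17 CPM, against 4.26, 2.23 and 1.18 CPM in MEFs. Both groups rose over MEFs (1.75 ± 0.42, adjusted p = 0.00398, and 1.4 ± 0.4, adjusted p = 0.00907), although replicate 4 of C6FAE-C6F(L) overlapped the highest MEF library. Suv39h2 also rose in pHeps over MEF (2.06) and in C6FAE over C6F(L) (1.16), a call lost without any 1 of the C6FAE libraries or without C6F(L) replicate 1 or 2, and fell in C6F5UE-C6F(L)V over C6FAE-C6F(L) (-1.72). Dclre1c overlaps 8.1% of its exon bases on the other strand and had 6.49 to 20 mean CPM per group.

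The 3 enzymes that the cocktails inhibit were called in no comparison of the counts as deposited with all libraries. In pHeps over MEF, Dot1l was called higher with a trend with gene length, described below, taken out (1.08), and Ehmt2 was called lower without pHeps replicate 1. Dot1l, the only known H3K79 methyltransferase, had 84.7, 84.5 and 81 CPM in C6FAE, which contains the DOT1L inhibitor, against 59.1, 53.7 and 63.2 CPM in MEFs. The groups did not overlap, and the log2 fold change of 0.51 (95% interval 0.33 to 0.7, adjusted p = 0.000275) was below the fold threshold. Dot1l had 77.3, 55.3 and 72.9 CPM in NSF-CiHeps, 65.3, 65.8 and 70.6 CPM in C6F5UE-C6F(L)V, 70.3 and 81.4 CPM in pHeps, 79.7, 83.1, 82.9 and 82.6 CPM in C6FAE-C6F(L) and 70.3, 82.7 and 73 CPM in C6F(L). Those ranges lie close together. In C6F(L), where no DOT1L inhibitor was given, the change over MEF was 0.36 (0.18 to 0.54), and C6FAE over C6F(L) was 0.15 (-0.03 to 0.33).

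Ehmt1 (GLP) and Ehmt2 (G9a), which form a dimer that places H3K9 mono- and dimethylation, are the targets of UNC0638. Ehmt2 had 230, 231 and 246 CPM in NSF-CiHeps, 196, 191 and 181 CPM in C6F5UE-C6F(L)V, 145 and 124 CPM in pHeps, 196, 200, 207 and 209 CPM in C6FAE-C6F(L), 228, 242 and 251 CPM in C6FAE, 230, 225 and 228 CPM in C6F(L) and 258, 251 and 245 CPM in MEFs. Per kilobase it had the highest mean of all members in C6F5UE-C6F(L)V, C6F(L) and MEF (34.4, 41.5 and 45.8 CPM per kb), and 24.5 CPM per kb in pHeps. Ehmt1 had 57.4, 53.7 and 66.9 CPM in NSF-CiHeps, 61.9, 66.5 and 46.1 CPM in C6F5UE-C6F(L)V, 41.5 and 43.5 CPM in pHeps, 68.6, 69.2, 81.4 and 69 CPM in C6FAE-C6F(L), 94.5, 99.7 and 93.2 CPM in C6FAE, 76.1, 70 and 73.8 CPM in C6F(L) and 73.5, 68.6 and 67.7 CPM in MEFs. C6FAE libraries were the highest for Ehmt1 and pHeps the lowest. In C6F5UE-C6F(L)V over C6FAE-C6F(L), the pair that differs in UNC0638, the retinoid and vitamin C, the log2 fold change was -0.31 for Ehmt1 (-0.54 to -0.07) and -0.1 for Ehmt2 (-0.26 to 0.05). Ehmt2 was lower in pHeps than in MEFs, at -0.9 (-1.09 to -0.71), just short of the fold threshold. The intervals bound changes in RNA only and say nothing of enzyme activity, which these files do not measure.

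**Figure D2:**
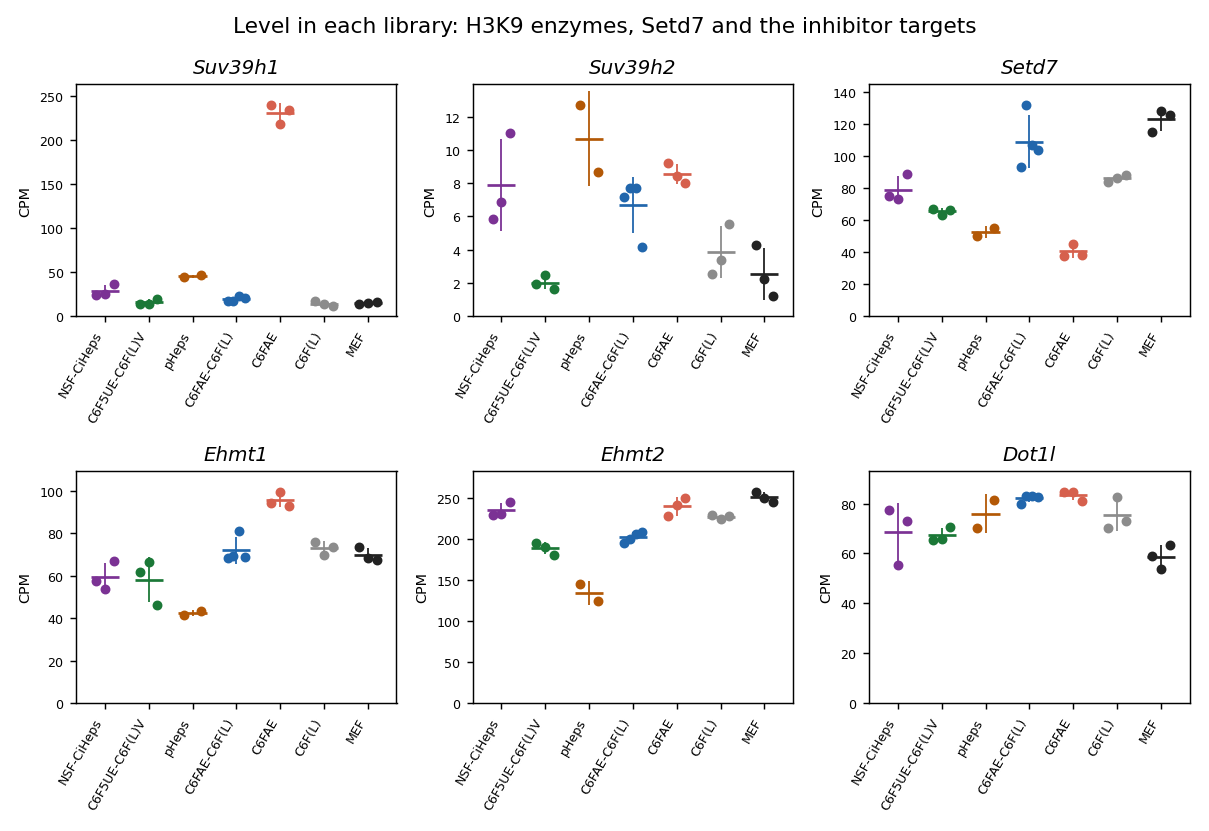
CPM of Suv39h1, Suv39h2, Setd7, Ehmt1, Ehmt2 and Dot1l in each library by group, with points for libraries, bars for means and lines for 1 SD. The C6FAE libraries stand at 219 to 240 CPM for Suv39h1, with every other library at 46.2 CPM or below, while Ehmt2 lies between 124 and 258 CPM and Dot1l between 53.7 and 84.7 CPM.

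Among the DNA methyltransferases, Dnmt3a, which methylates DNA de novo (chr12:3806007-3914443, plus strand), fell in the cells that passed through both steps. It had 29.4, 29.9, 24.6 and 36.5 CPM in C6FAE-C6F(L), 80.3, 82 and 85.3 CPM in C6FAE and 73.5, 72.6 and 75.5 CPM in C6F(L), against 140, 124 and 129 CPM in MEFs. No libraries of these groups overlapped. C6FAE-C6F(L) fell by 2.11 ± 0.11 on the log2 scale against MEF (adjusted p = 2.06e-08), by 1.45 ± 0.11 against C6FAE (adjusted p = 4.09e-07) and by 1.28 ± 0.11 against C6F(L) (adjusted p = 1.56e-06). Each single step gave a smaller value, -0.66 for C6FAE and -0.83 for C6F(L) over MEF, under the fold threshold. The difference between the change from C6FAE to C6FAE-C6F(L) and the change from MEF to C6F(L) was -0.62 (adjusted p = 0.00594), also under that threshold. The C6F(L) schedule holds neither EPZ004777 nor AM580, so in this difference the start of that schedule and the end of C6FAE cannot be told apart. This difference between steps was called for 7 members in all, which is 12.3% of those tested, against 33% of all genes, 16.2% higher and 16.8% lower.

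The hepatocyte-like cells and hepatocytes were lower still. Dnmt3a had 22.3, 17.6 and 19 CPM in NSF-CiHeps, 19.8, 19.7 and 20.7 CPM in C6F5UE-C6F(L)V and 16.4 and 16 CPM in pHeps. NSF-CiHeps and C6F5UE-C6F(L)V overlapped (-0.03), and C6F5UE-C6F(L)V over pHeps was 0.3 with an adjusted p of 0.163. pHeps fell by 3.02 ± 0.15 on the log2 scale against MEFs (adjusted p = 2.57e-11), or by 1.71 ± 0.11 with the trend with gene length, described below, taken out.

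Dnmt1, which copies methylation onto new DNA strands, was lowest in the C6F5UE-C6F(L)V cells. It had 86.5, 67.4 and 77.4 CPM in NSF-CiHeps, 36, 34.8 and 35.2 CPM in C6F5UE-C6F(L)V, 83.4 and 82.7 CPM in pHeps, 86.1, 109, 129 and 102 CPM in C6FAE-C6F(L), 124, 115 and 122 CPM in C6FAE, 87.3, 83.4 and 92.4 CPM in C6F(L) and 91.2, 93.8 and 94.4 CPM in MEFs. The C6F5UE-C6F(L)V libraries lay below all others. They fell by 1.24 ± 0.11 on the log2 scale against pHeps (adjusted p = 5.84e-07) and by 1.59 ± 0.11 against C6FAE-C6F(L) (adjusted p = 3.04e-09), and NSF-CiHeps rose over them by 1.12 ± 0.12 (adjusted p = 6.8e-07), or 0.92 and uncalled with the length trend taken out. The summed level of genes of cell division was also lowest in C6F5UE-C6F(L)V, but it did not follow Dnmt1 in every comparison. The summed level of 25 proliferation genes was 1090 to 1400 CPM in NSF-CiHeps, 717 to 742 CPM in C6F5UE-C6F(L)V, 2530 to 2560 CPM in pHeps and 1060 to 1370 CPM in C6FAE-C6F(L). Of these 25, 23 fell in C6F5UE-C6F(L)V over pHeps, 15 fell over C6FAE-C6F(L), and 19 rose and 1 fell in NSF-CiHeps over C6F5UE-C6F(L)V. In pHeps over MEF, however, 16 rose and 0 fell, while Dnmt1 averaged 83 CPM in pHeps and 93.1 CPM in MEFs. The part of these genes in the Dnmt1 values was not tested.

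Dnmt3b, the second de novo enzyme, was low. It had 8.4, 6.33 and 10.6 CPM in C6FAE, against 3.81, 3.25 and 2.77 CPM in MEFs, a rise of 1.37 ± 0.39 on the log2 scale (adjusted p = 0.0103). C6FAE also stood above C6F(L), with 2.73, 2.46 and 0.639 CPM (2.13 ± 0.41, adjusted p = 0.00118), and C6FAE-C6F(L), with 3.14, 3.61, 2.6 and 3.74 CPM, fell against C6FAE (-1.36 ± 0.36, adjusted p = 0.00589). The C6FAE libraries overlapped none of these groups. The remaining cells had 2.02, 0.614 and 1.32 CPM in NSF-CiHeps, 0.0851, 1.98 and 2.16 CPM in C6F5UE-C6F(L)V and 2.92 and 1.13 CPM in pHeps, which overlap. Dnmt3l, a cofactor without catalytic activity, and Dnmt3c, a rodent enzyme of the male germ line, did not pass the filter on low counts: Dnmt3l had 17 counts over the C6FAE libraries and at most 6 in any other group, and Dnmt3c at most 4 in any group. The 17 counts of Dnmt3l compare with 1 in C6F(L), a ratio of 14.9 (95% interval 2.33 to 621, counting error only), and with 3 in C6FAE-C6F(L), a ratio of 6.81 (1.97 to 36.3), and both differences were called when no filter was applied. At 0 counts Dnmt3c could still stand at up to 0.0861 CPM in MEFs, the level of 3 counts over the group.

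Of the TET enzymes, Tet1 (chr10:62804570-62908996, minus strand) changed most. It had 11.7, 13.3 and 13.5 CPM in C6FAE, against 13.2, 11.3 and 12.6 CPM in MEFs, which overlap (log2 fold change 0.06). It had 3.61, 4.54 and 5.48 CPM in C6F(L), a fall of 1.44 ± 0.39 against MEFs on the log2 scale (adjusted p = 0.0108). In C6FAE-C6F(L) it had 0.808, 0.39, 0 and 0.695 CPM, which is 21 counts over the group against 467 in C6FAE and 431 in MEFs. Tet1 passed the filter through C6FAE, C6F(L) and MEF libraries. C6FAE-C6F(L) fell against MEF (-4.65 ± 0.44, adjusted p = 2.86e-06), against C6FAE (-4.71 ± 0.44, adjusted p = 2.91e-06) and against C6F(L) (-3.21 ± 0.46, adjusted p = 9.26e-05), with no overlap. The fall was deeper from C6FAE to C6FAE-C6F(L) than from MEF to C6F(L), with a difference between steps of -3.27 ± 0.6 (adjusted p = 0.000734).

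Tet1 stayed near the detection limit in the later cells, with 1.32, 0.351 and 0.233 CPM in NSF-CiHeps, 0.936, 0 and 0.206 CPM in C6F5UE-C6F(L)V and 0 and 0.0943 CPM in pHeps. The single count in pHeps against 431 in MEFs gives a ratio of 258, with a 95% interval of 46.1 to 10200 that covers counting error only. C6F5UE-C6F(L)V had 13 counts against 1 in pHeps, a ratio of 8.46 (1.27 to 360), and the gene was not tested in that pair. Its calls held in every alternative run.

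Tet2 had 19.7, 18.3 and 27 CPM in NSF-CiHeps, 15.9, 11.4 and 14.5 CPM in C6F5UE-C6F(L)V, 10.3 and 12.3 CPM in pHeps, 26, 42.9, 44.7 and 15.7 CPM in C6FAE-C6F(L), 30.8, 28.4 and 32.6 CPM in C6FAE, 21.8, 23.5 and 22.5 CPM in C6F(L) and 25.4, 18.9 and 18.8 CPM in MEFs. Only the fall of 1.21 in C6F5UE-C6F(L)V over C6FAE-C6F(L) was called, with overlapping groups, and it was -0.42 and uncalled with the length trend taken out. Tet3 had 44.2, 32.3 and 48.1 CPM in NSF-CiHeps, 25.1, 22.8 and 18.4 CPM in C6F5UE-C6F(L)V, 27.5 and 22.3 CPM in pHeps, 110, 166, 141 and 86.4 CPM in C6FAE-C6F(L), 79.1, 81.3 and 92.3 CPM in C6FAE, 81.3, 80.2 and 78.1 CPM in C6F(L) and 83.3, 92 and 82.4 CPM in MEFs. The libraries fall into a low set (NSF-CiHeps, C6F5UE-C6F(L)V and pHeps) and a high set. Tet3 fell in C6F5UE-C6F(L)V over C6FAE-C6F(L) (-2.51 ± 0.2, adjusted p = 7.41e-09) and in pHeps over MEF (-1.79 ± 0.23, adjusted p = 2.14e-06). With the length trend taken out the first was -1.71 and still called, and the second -0.48 and not.

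**Figure D3:**
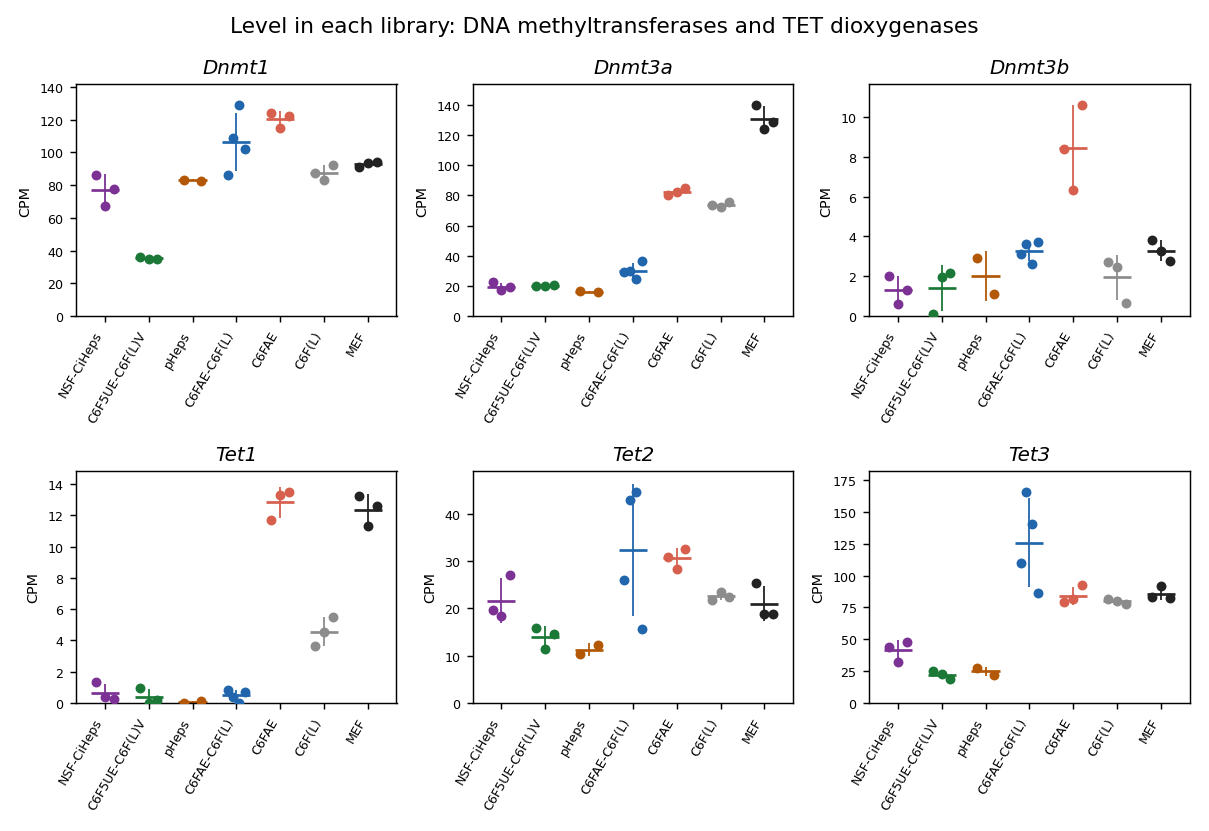
CPM of Dnmt1, Dnmt3a, Dnmt3b, Tet1, Tet2 and Tet3 in each library by group, with points for libraries, bars for means and lines for 1 SD. Dnmt3a falls to 36.5 CPM or less in every library outside C6FAE, C6F(L) and MEF, and Tet1 to 1.32 CPM or less in the same libraries.

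The 9 members grouped as the H3K4 methyltransferase family gave few calls within the first table. Setd7, which monomethylates H3K4 and other proteins, fell in C6FAE. It had 37.7, 45.3 and 38.4 CPM there, against 84.1, 86.3 and 88.1 CPM in C6F(L) and 115, 128 and 126 CPM in MEFs. C6FAE lay below both groups without overlap, by 1.6 ± 0.12 on the log2 scale against MEF (adjusted p = 8.86e-07) and by 1.09 ± 0.12 against C6F(L) (adjusted p = 2.5e-05), the second not called under scaling by library size alone (-0.97). C6FAE-C6F(L), with 93.1, 132, 107 and 104 CPM, rose over C6FAE by 1.44 ± 0.12 (adjusted p = 8.76e-07). Setd7 thus went up from C6FAE to C6FAE-C6F(L) and down, uncalled, from MEF to C6F(L), a difference of 1.95 ± 0.17 (adjusted p = 2.2e-06).

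Kmt2b, a catalytic subunit of an MLL complex, had 150, 196, 191 and 121 CPM in C6FAE-C6F(L), against 67.2, 67.1 and 63.4 CPM in MEFs. All the C6FAE-C6F(L) libraries were higher, and the log2 fold change was 1.33 ± 0.15 (adjusted p = 8.47e-06). In the hepatocyte-like cells Setd1b had 19.5, 16 and 18.4 CPM in C6F5UE-C6F(L)V, against 64.8, 106, 96.9 and 55.9 CPM in C6FAE-C6F(L), a fall of 2.17 ± 0.21 (adjusted p = 7.64e-08) that was -1.53 with the length trend taken out. Kmt2c and Kmt2e rose in C6F5UE-C6F(L)V over pHeps (1.21 and 1.07), and Kmt2e was uncalled there without the length trend (0.91). In pHeps over MEF 6 of the 9 fell (Kmt2a, Kmt2c, Kmt2d, Kmt2e, Setd1b and Setd7, from -1.01 to -1.99), and none of the 6 was called with the length trend taken out.

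The PRC2 core, which places H3K27 methylation, had 3 calls over the 10 comparisons, 2 of them in Ezh1. Ezh1, the catalytic subunit typical of resting cells, had 54.9, 49.5 and 53.1 CPM in NSF-CiHeps, 106, 98.3 and 103 CPM in C6F5UE-C6F(L)V, 28.9 and 37.9 CPM in pHeps, 75.7, 76.6, 91.6 and 39.7 CPM in C6FAE-C6F(L), 47.3, 56.2 and 51.7 CPM in C6FAE, 54, 49.7 and 47.7 CPM in C6F(L) and 33.4, 34.1 and 34.6 CPM in MEFs. C6F5UE-C6F(L)V lay above all others and rose over pHeps by 1.61 ± 0.12 on the log2 scale (adjusted p = 2.15e-07). C6FAE-C6F(L) rose over MEF by 1.07 ± 0.21 (adjusted p = 0.000881), a call lost without replicate 3 and standing at 1.27 without replicate 4. NSF-CiHeps over C6F5UE-C6F(L)V was -0.96, and -1.17 and called lower with the length trend taken out.

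Ezh2, the catalytic subunit typical of dividing cells, had 55.9, 52.3 and 46.3 CPM in NSF-CiHeps, 34, 33 and 38.7 CPM in C6F5UE-C6F(L)V, 53.2 and 42 CPM in pHeps, 37, 46.6, 51.5 and 34.6 CPM in C6FAE-C6F(L), 49.7, 51.2 and 50.1 CPM in C6FAE, 24.9, 22.1 and 26 CPM in C6F(L) and 24.4, 27.7 and 24 CPM in MEFs. C6FAE rose over C6F(L) by 1.05 ± 0.14 (adjusted p = 0.000105), a call lost without C6F(L) replicate 2, and its 0.99 over MEF lay just under the threshold, past it with scaling by library size alone, with the length trend taken out and without MEF replicate 2 or C6FAE replicate 1. In the first of these comparisons 10 of the 25 proliferation genes rose too, and their part in it was not tested. Eed, the subunit that reads H3K27me3, had 43.2, 41.8 and 39.9 CPM in NSF-CiHeps, 51.8, 44.1 and 45.7 CPM in C6F5UE-C6F(L)V, 57.9 and 55 CPM in pHeps, 40.1, 37.9, 46.7 and 49.4 CPM in C6FAE-C6F(L), 36.3, 31.4 and 32.3 CPM in C6FAE, 47.3, 42.1 and 49 CPM in C6F(L) and 33.5, 31.8 and 33.8 CPM in MEFs. Suz12, another core subunit, had 82.4, 61.6 and 59 CPM in NSF-CiHeps, 49.3, 58.9 and 48.2 CPM in C6F5UE-C6F(L)V, 56.1 and 65.2 CPM in pHeps, 93.8, 98.3, 100 and 67.6 CPM in C6FAE-C6F(L), 96.9, 95.3 and 95.9 CPM in C6FAE, 57.7, 61.1 and 68.2 CPM in C6F(L) and 50.4, 49.9 and 50.3 CPM in MEFs. Neither was called with all libraries and TMM scaling, and Suz12 was nearest to a call in C6FAE over MEF (0.94 ± 0.13, adjusted p = 7.83e-05).

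Of the enzymes of H3K36, H3K79 and H4K20, Kmt5a, which monomethylates H4K20, had 130, 160, 138 and 159 CPM in C6FAE-C6F(L), against 56.3, 45.7 and 53.4 CPM in C6F(L). It rose there by 1.51 ± 0.1 (adjusted p = 2.47e-07), the only member called higher in that comparison. It rose also in C6FAE over C6F(L) (1.06, lost without C6F(L) replicate 2) and in pHeps over MEF (1.1). Kmt5c, which adds further methyl groups to H4K20, rose in C6F5UE-C6F(L)V over pHeps (1.21) and over C6FAE-C6F(L) (1.28), and both calls held with the length trend taken out. Setd2 (H3K36 trimethylation) and Nsd1 (H3K36 dimethylation) fell in C6F5UE-C6F(L)V over C6FAE-C6F(L) (-1.52 and -1.11) but were at -0.94 and -0.28 with that trend taken out. Setd2 and Kmt5b fell in pHeps over MEF (-1.49 and -1.03), and neither call survived the same step.

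Setd6 and Setd4, SET-domain enzymes whose best-known substrates are not all histones, were higher in pHeps and C6F5UE-C6F(L)V than in C6FAE-C6F(L) and MEFs. Setd6 had 52.4, 55.5 and 61 CPM in C6F5UE-C6F(L)V and 49.4 and 51.9 CPM in pHeps, against 21.5, 14.1, 14.5 and 25.5 CPM in C6FAE-C6F(L) and 9.13, 7.88 and 10.6 CPM in MEFs. Setd4 had 17.5, 17.6 and 19.8 CPM in C6F5UE-C6F(L)V and 15.6 and 19.3 CPM in pHeps, against 6.65, 8, 6.59 and 8.08 CPM in C6FAE-C6F(L) and 3.9, 3.77 and 3.36 CPM in MEFs. Neither gene overlapped between these pairs of high and low groups. pHeps rose over MEF by 2.46 ± 0.23 for Setd6 (adjusted p = 4.26e-08) and 2.25 ± 0.21 for Setd4 (adjusted p = 4.79e-08), and C6F5UE-C6F(L)V rose over C6FAE-C6F(L) by 1.57 ± 0.19 (adjusted p = 1.16e-06) and 1.32 ± 0.17 (adjusted p = 3.48e-06). All 4 calls held with the length trend taken out. The rises of C6FAE-C6F(L) over MEF (1.05 for Setd6 and 1 for Setd4) were lost in 4 and 7 of 14 alternatives, and were 0.87 and 0.95 without C6FAE-C6F(L) replicate 4. NSF-CiHeps, with 24.9, 34.6 and 32.4 CPM of Setd6 and 9.08, 11.1 and 9.24 CPM of Setd4, were below the C6F5UE-C6F(L)V libraries, at -0.88 for Setd6 and -0.9 for Setd4, short of the fold threshold. Setd4 was called lower there with the length trend taken out (-1.01) and without NSF-CiHeps replicate 2.

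Among the demethylases, Kdm7a, a JmjC enzyme acting on H3K9 and H3K27 dimethylation, rose with each single step. It had 79.4, 92 and 86.8 CPM in C6FAE and 81.2, 94 and 97 CPM in C6F(L), against 36.4, 33.4 and 32.4 CPM in MEFs (log2 fold changes of 1.34 ± 0.2, adjusted p = 0.00015, and 1.41 ± 0.2, adjusted p = 0.000172). Neither treated group overlapped MEFs. With both steps it had 73.3, 85.9, 77.7 and 42.6 CPM, and the difference between steps was -1.71 ± 0.27 (adjusted p = 0.000267), and -1.53 without replicate 4. The call over MEF in the cells of both steps (1.05) was lost without replicate 2 or 3 and was 1.22 without replicate 4. In the hepatocyte-like cells it was lower, at 28.2, 25.4 and 20.6 CPM in C6F5UE-C6F(L)V and 9.06 and 10.7 CPM in pHeps.

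The H3K27 demethylases Kdm6a and Kdm6b were higher in C6F5UE-C6F(L)V than in hepatocytes. Kdm6b had 42.9, 52.1 and 40.9 CPM in C6F5UE-C6F(L)V, against 14.1 and 14.6 CPM in pHeps (1.65 ± 0.16, adjusted p = 2.34e-06), and Kdm6a 55.6, 44.9 and 46.5 CPM, against 16.9 and 17.4 CPM in pHeps (1.51 ± 0.15, adjusted p = 2.51e-06). The groups were separate for both. pHeps in turn were below MEFs for Kdm6b, which had 92.6, 90.3 and 92 CPM in MEFs (-2.67 ± 0.17, adjusted p = 4.88e-10, and -2.21 with the length trend taken out). Kdm8 had 7.91, 5.29 and 3.19 CPM in C6F5UE-C6F(L)V, against 12.8 and 13.6 CPM in pHeps (-1.27 ± 0.33, adjusted p = 0.00575), a call lost without C6F5UE-C6F(L)V replicate 3. Kdm7a and Kdm3a also rose over pHeps (1.32 and 1.06), and Kdm3a was uncalled without C6F5UE-C6F(L)V replicate 2 and with the length trend taken out (0.95).

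Kdm5b, an H3K4 demethylase, had 43.9, 44.8 and 36.5 CPM in C6F5UE-C6F(L)V, against 153, 266, 184 and 133 CPM in C6FAE-C6F(L). It fell by 2.14 ± 0.18 (adjusted p = 1.3e-08), and by 1.34 with the length trend taken out. Kdm2b also fell there (-1.66), as did Kdm7a and Kdm6b (-1.5 and -1.23, both uncalled with the trend taken out). Kdm4d was called higher on few counts, with 0.255, 1.13 and 1.75 CPM in C6F5UE-C6F(L)V, against 0.539, 0.195, 0 and 0.174 CPM in C6FAE-C6F(L) (log2 fold change 2.13 ± 0.84). It passed the filter only through C6F5UE-C6F(L)V libraries, and the groups overlapped. The call was lost in 6 of 11 alternatives, among them those without C6FAE-C6F(L) replicate 2, 3 or 4, and the gene dropped out of the test without C6F5UE-C6F(L)V replicate 2 or 3 and in the fit of only the libraries compared. Kdm3a had 45.8, 40.6 and 54.2 CPM in NSF-CiHeps, against 104, 123 and 83 CPM in C6F5UE-C6F(L)V, a fall of 1.14 ± 0.15 (adjusted p = 7.95e-06) that was -0.95 and uncalled without C6F5UE-C6F(L)V replicate 2. Of the amine oxidases, Kdm1b had 30, 23, 25.3 and 27.5 CPM in C6FAE-C6F(L), against 12.9, 11.8 and 11.2 CPM in C6FAE (1.15 ± 0.12, adjusted p = 5.8e-06), and Kdm1a was called nowhere. Dek overlaps 9.2% of the exon bases of Kdm1b on the other strand and had 50.2 to 94.5 mean CPM per group.

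Of the 8 arginine methyltransferases, Prmt8 and Prmt2 were called and the other 6 were not. Prmt8, a membrane-bound enzyme known mainly from brain (ENSMUSG00000030350, chr6:127689011-127769472, minus strand), had 2.42, 3.17 and 4.26 CPM in C6FAE and 0.488, 1.7 and 0.274 CPM in C6F(L), against 0 in all 3 MEF libraries. Set against the level of 3 counts over the MEF group, it was at least 38-fold higher in C6FAE and at least 9.51-fold higher in C6F(L) (from 119 and 26 counts). It passed the filter on low counts through the C6FAE libraries, so the test of the rise in these 2 groups is not given. In the fit of only the C6F(L) and MEF libraries it did not pass the filter and was not tested. C6FAE-C6F(L) had 1 count, in replicate 4, against 119 in C6FAE, a ratio of 143 (95% interval 25.2 to 5690), and C6F5UE-C6F(L)V had 1 and NSF-CiHeps and pHeps none. Only C6FAE and C6F(L) libraries therefore held more than 1 count.

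Prmt2, a coactivator of nuclear receptors, had 13.1, 18.8, 12.5 and 25.8 CPM in C6FAE-C6F(L), against 64.2, 57.4 and 55.8 CPM in C6FAE and 41.6, 41.3 and 41.1 CPM in MEFs. It fell against C6FAE by 1.74 ± 0.2 (adjusted p = 1.47e-05) and against MEF by 1.22 ± 0.2 (adjusted p = 0.000216), or by 1.99 and 1.47 without replicate 4, and the groups did not overlap. It rose in C6FAE over C6F(L) (1.4) and in C6F5UE-C6F(L)V over pHeps (1.29), and fell in pHeps over MEF (-1.55).

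The comparison with the most calls among the members, pHeps over MEF, also carried the strongest relation between fold change and gene length. All genes that averaged at least 1 CPM over the libraries of both groups together were put in 4 equal length classes. The median log2 fold change was 0.82 in the shortest class and -0.91 in the longest. The medians were 0.48 and -0.6 for C6F5UE-C6F(L)V over C6FAE-C6F(L) and -0.39 and 0.25 for NSF-CiHeps over C6F5UE-C6F(L)V, all across count tables, against -0.12 and 0.1 for C6F5UE-C6F(L)V over pHeps and, within the first table, from 0.02 and 0 for C6F(L) over MEF to 0.21 and -0.07 for C6FAE-C6F(L) over MEF. The members are long genes: 32 of the 56 in the pHeps comparison lay in the longest class, at 6513 bases or more, and 2 in the shortest. The 20 members called lower in pHeps had a median length of 13082 bases, and the 6 called higher 4840 bases.

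With that trend taken out of each library, an alternative added after the data had been seen, 10 members were called higher and 5 lower in pHeps over MEF, against 48% of all genes, and 11 calls were shared with those above. Dnmt3a, Tet1, Kdm6b, Kdm5c and Prmt2 remained lower, and Suv39h1, Suv39h2, Setd4, Setd6, Kdm8 and Kmt5a remained higher. NSF-CiHeps over C6F5UE-C6F(L)V then had 1 member higher and 5 lower, against 27.5% of all genes. In pHeps over MEF, Kmt2b (1.09), Dot1l (1.08), Ezh2 (1.33) and Setd1a (1.15) were called higher with the trend taken out and not with the counts as deposited, where Ezh2 was called only without pHeps replicate 2. In C6F5UE-C6F(L)V over C6FAE-C6F(L), 9 members were called, against 39.2% of all genes, and all 9 were among the 16 above: Kmt5c, Setd4 and Setd6 higher, and Dnmt1, Kdm2b, Kdm5b, Setd1b, Suv39h2 and Tet3 lower. Whether the trend belongs to the cells or to the preparation of the libraries cannot be told apart here.

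**Figure D4:**
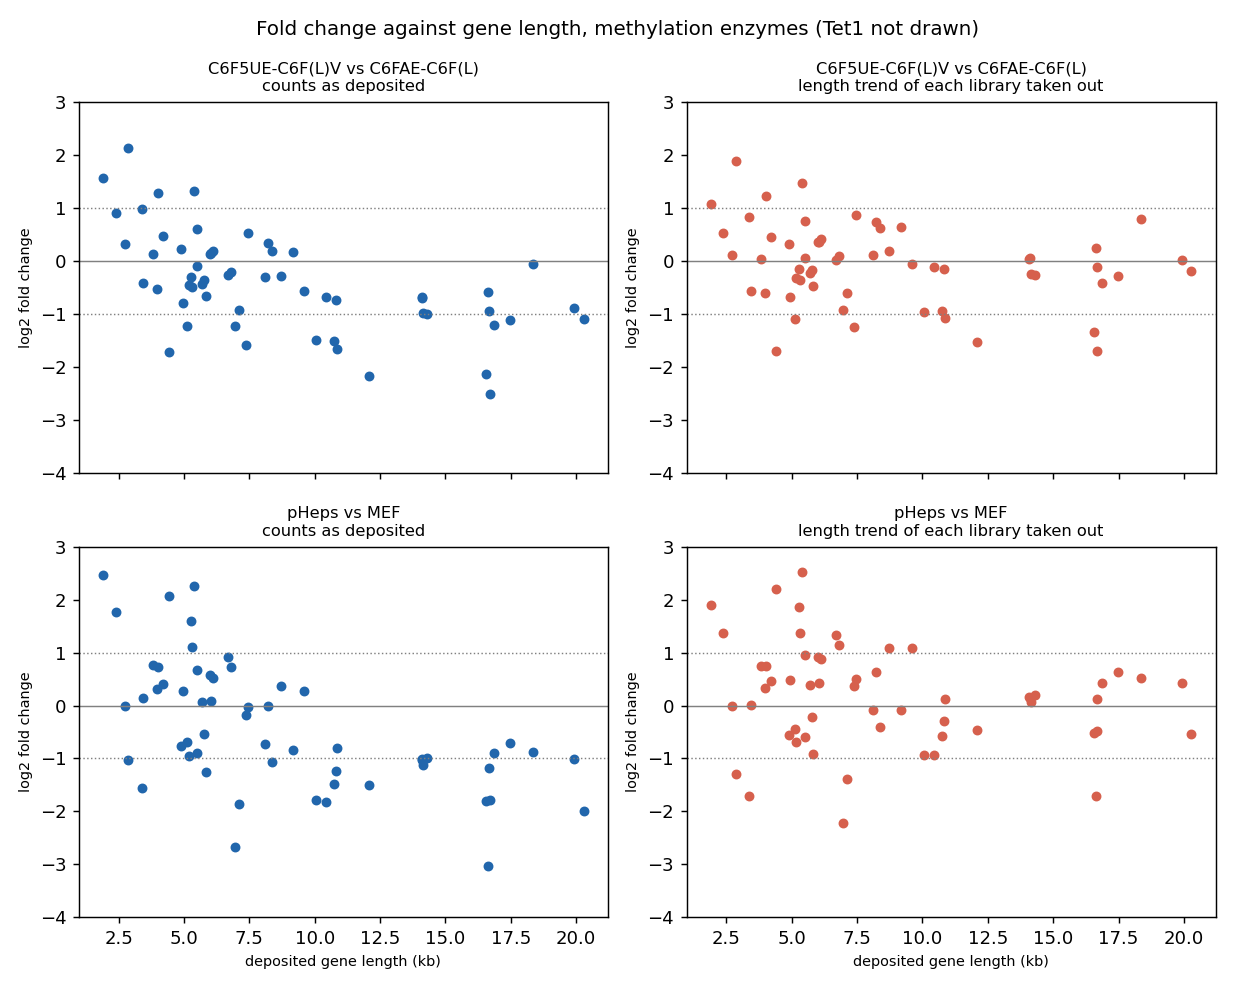
Log2 fold change of each member against its deposited gene length in kilobases for pHeps over MEF and C6F5UE-C6F(L)V over C6FAE-C6F(L), as deposited and with the length trend of all genes taken out (Tet1 not drawn). The longest members lie below 0 as deposited and near 0 once the trend is removed, while Dnmt3a stays low in pHeps and Tet3 in C6F5UE-C6F(L)V.

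Single partner proteins of these enzymes changed strongly in C6FAE. Of 17 partners of PRC2 and PRC1, in a list chosen with earlier results of these data known, 3 rose and 4 fell in C6FAE over MEF, where 30.4% of all genes were called. Jarid2, which guides PRC2 to its targets, averaged 252 ± 12.5 CPM in C6FAE and 21.1 ± 3.72 CPM in MEFs (SD, n = 3 each, log2 fold change 3.59, adjusted p = 7.79e-08), and Epop, another PRC2 accessory subunit, 23.9 ± 1.75 CPM and 1.76 ± 0.743 CPM (3.77, adjusted p = 1.57e-07). Jarid2 fell again in C6FAE-C6F(L), to 42.5 ± 9.43 CPM (n = 4), by 2.57 against C6FAE, while Epop stayed at 31 ± 3.58 CPM. Bmi1 and Phf1 fell in C6FAE over MEF (-1.55 and -1.16). Of 22 partners in COMPASS, DOT1L, LSD1 and G9a complexes, 3 rose and none fell, a share below that of all genes. Mllt3 rose by 2.05, from 18 CPM in MEFs to 74.1 CPM in C6FAE, and Rcor2 by 2.01, from 8.52 to 34.2 CPM. Gfi1 averaged only 1.1 CPM in C6FAE and 0.028 CPM in MEFs, so its fitted 4.81 rests on a group near 0 counts and is no bound. In C6F(L) over MEF no gene of these 2 lists was called by edgeR's test, and the list medians were 0.2 and 0.07 against 0.01 over all genes.

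Among 17 tested partners and readers of DNA methylation, Uhrf1 and Hells were lowest in C6F5UE-C6F(L)V, as Dnmt1 was. Uhrf1, which brings DNMT1 to newly replicated DNA, averaged 41.8 ± 2.83 CPM in NSF-CiHeps (n = 3), 7.8 ± 1.84 CPM in C6F5UE-C6F(L)V (n = 3) and 67.1 ± 5.92 CPM in pHeps (n = 2), and Hells, a chromatin remodeller of the same pathway, 21.8 ± 7.06, 7.26 ± 0.672 and 70.2 ± 0.708 CPM in the same groups. Both fell in C6F5UE-C6F(L)V over pHeps (-3.11 and -3.27) and over C6FAE-C6F(L) (-2.58 and -2.13), and both rose in NSF-CiHeps over C6F5UE-C6F(L)V (2.42 and 1.58). The list as a whole went both ways: 4 rose and 4 fell in C6F5UE-C6F(L)V over C6FAE-C6F(L), against 42.4% of all genes called, 3 rose and 4 fell over pHeps (33.1% of all genes), and 3 rose and 2 fell in NSF-CiHeps over C6F5UE-C6F(L)V (28.4%). Both genes also belong to the dividing state, whose summed markers are given above.

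Some genes of methyl donor supply differed widely between the hepatocyte-like cells. Mat1a, the liver form of the enzyme that makes S-adenosylmethionine, averaged 0.884 ± 0.396 CPM in NSF-CiHeps, 220 ± 58.3 CPM in C6F5UE-C6F(L)V and 24.4 ± 0.0349 CPM in pHeps, and was at 0 in all C6FAE, C6F(L) and MEF libraries. It rose in C6F5UE-C6F(L)V over pHeps (3.16, adjusted p = 4.88e-08) and fell in NSF-CiHeps over C6F5UE-C6F(L)V (-7.94, adjusted p = 1.08e-05). Gnmt, which consumes the donor, and Bhmt, which remakes methionine, also rose in C6F5UE-C6F(L)V over pHeps (2.55 and 3.34) and fell in NSF-CiHeps over C6F5UE-C6F(L)V (-5.48 and -6.9). Mat2a, the form of the donor enzyme used outside the liver, averaged 363 ± 8.15 CPM in NSF-CiHeps, 283 ± 35.9 CPM in C6F5UE-C6F(L)V and 346 ± 7.97 CPM in pHeps. Of 23 genes of cofactor supply, 8 rose and 1 fell in C6F5UE-C6F(L)V over C6FAE-C6F(L), against 42.4% of all genes called, and 1 rose and 7 fell in NSF-CiHeps over C6F5UE-C6F(L)V, against 28.4%. In C6FAE, Ahcy, which clears the by-product of methylation, averaged 427 ± 20.1 CPM, against 48.4 ± 2.3 CPM in MEFs (3.15, adjusted p = 7.28e-08), and Nnmt, which methylates nicotinamide, fell to 0.743 ± 0.166 CPM, against 13.8 ± 1.32 CPM in MEFs (-4.19, adjusted p = 8.1e-05). Of the 21 hepatocyte markers, 17 fell in NSF-CiHeps over C6F5UE-C6F(L)V, while 6 rose and 6 fell of 20 tested in C6F5UE-C6F(L)V over pHeps, and their part in these values was not tested.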

How the data were processed

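Polyadenylated RNA was sequenced, and per the submitters' processing notes reads were aligned with HISAT2 to GRCm38 (mm10); which program counted them, with which annotation and whether strand was used is not given in the sources used here. The authors deposited raw counts per gene for 54532 genes in 3 tables, used here as deposited. They also deposited FPKM values for 16 libraries, used only to check labels: 13 columns fit the counts under their own label, and 3 MEF columns fit another MEF library. The members' coordinates were the same as in GENCODE M21 for all 60 members, and 27 share exon bases with another gene.

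Counts were tested with edgeR 4.0.16 in R 4.3.3 (TMM scaling, filterByExpr with a minimum count of 10 and total of 15, quasi-likelihood test), in fits of 13 libraries (16535 genes), 5 libraries (15531 genes) and 21 libraries (18605 genes), with Benjamini-Hochberg adjustment over all genes of a fit. The fit of 13 covers C6FAE-C6F(L) with C6FAE, C6F(L) and MEF, the fit of 5 C6F5UE-C6F(L)V and pHeps, and the fit of 21 the comparisons across tables. CPM uses library totals scaled by TMM over the 21 libraries. Floors of 3 counts and the exact 95% intervals of ratios cover counting error only. Alternatives were DESeq2 1.42.0, other scalings, no filter, a replicate block, leaving out libraries, fits of only the libraries compared, the adjusted p alone and, added after seeing the data, a gene length offset and the absence of C6FAE-C6F(L) replicate 4 from every fit. Every group's libraries differed by more than counting noise (chi-square per degree of freedom at least 3.31).

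The name rule for members and the other lists were chosen with earlier results of these data known. Values in every library are given for the enzymes the cocktails inhibit, the Dnmt and Tet genes, the PRC2 core and, in each comparison, the 3 called members with the largest rise and the 3 with the largest fall that averaged at least 1 CPM in the higher group.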

Additional observations from a re-analysis of the deposited data

Results flagged for a closer look

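For 7 members the change from C6FAE to C6FAE-C6F(L), which also ended EPZ004777 and AM580, differed from the change from MEF to C6F(L). By edgeR's test of the difference itself, on the log2 scale, they were Suv39h1 (-3.49), Tet1 (-3.27), Kdm7a (-1.71), Setd7 (1.95), Kdm1b (1.12), Kmt5a (1.04) and Prmt8, whose fitted -12.82 rests on groups at or near 0 counts and is no bound. Prmt8 passed the filter through the C6FAE libraries, so its call carries no weight. The 7 with Prmt8 are 12.3% of the members tested, against 33% of all genes. The Kmt5a call was lost under scaling by library size alone and without MEF replicate 1, C6F(L) replicate 2 or C6FAE-C6F(L) replicate 2.

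In C6FAE-C6F(L), the only group with 4 libraries, 1 library lay far from the other 3 for 8 members. Chance flags about 1 group in 20 where values are continuous. That rate does not apply to Prmt8, Dnmt3c and Dnmt3l, which had 1, 4 and 3 counts over the group, so few that the flag follows from the counts being whole numbers. Replicate 4 had 4.17 CPM of Suv39h2 and 0.0869 CPM of Prmt8, replicate 1 had 0.359 CPM of Dnmt3c, 79.7 CPM of Dot1l and 98.7 CPM of Setd3, and replicate 3 had 81.4 CPM of Ehmt1, 15.5 CPM of Prmt6 and 0 CPM of Dnmt3l. For Dot1l and Setd3 the other 3 libraries lay between 82.6 and 83.1 CPM and between 101 and 102 CPM, so the distance was small in absolute terms.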

How the results depend on the processing

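Of the values of single members under the alternatives run, 1347 kept their direction and side of the threshold, 69 kept the direction and lost the call, and 5 turned, all in pHeps over MEF with the gene length offset: Kdm3b (0.17), Kdm5a (0.06), Kmt2a (0.12), Kmt2d (0.43) and Kmt5b (0.14). Of the counts of called members, 275 stayed within 1.5 times and 37 did not. The 37 include every count by adjusted p alone, a looser rule whose counts are given below. Scaling by library size alone moved the median of all genes to 0.12, against 0.02, in C6FAE over MEF and to 0.12, against 0.01, in C6FAE over C6F(L). With it, 8 members were higher in C6FAE over MEF (Ezh2, Suz12 and Prmt5 added) and 0 lower in C6FAE over C6F(L). Of all 16535 genes, 5065 and 4043 were then called in these 2 comparisons, against 5021 and 3975 with TMM scaling. Fitting only the libraries compared left 1 member higher in C6F(L) over MEF, where Prmt8 was no longer tested and 3850 of 14927 genes were called. With the length offset, 6 were lower in C6F5UE-C6F(L)V over C6FAE-C6F(L), 1 higher and 5 lower in NSF-CiHeps over C6F5UE-C6F(L)V, and 10 higher and 5 lower in pHeps over MEF. The cause of these shifts was not tested, apart from the offset, which by construction removes the relation with length.

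By adjusted p alone, with no minimum fold, 24 members were higher and 8 lower in C6FAE over MEF, and 11 and 9 in C6F(L) over MEF. C6FAE-C6F(L) had 27 and 5 over MEF, 19 and 15 over C6FAE and 20 and 7 over C6F(L), and C6FAE had 19 and 12 over C6F(L). C6F5UE-C6F(L)V had 21 and 11 over pHeps and 10 and 33 over C6FAE-C6F(L). NSF-CiHeps over C6F5UE-C6F(L)V had 23 and 11, and pHeps over MEF 15 and 31. The shares of members and of all genes for these comparisons are given in the Results. The test of the difference between steps had 24, which is 42.1% of the members tested, against 48.2% of all genes.

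Leaving out 1 library at a time gave 5 to 7 members higher in C6FAE over C6F(L) (5 without C6F(L) replicate 2), 1 to 2 higher in C6FAE-C6F(L) over C6F(L) (2 without C6F(L) replicate 3, with Suv39h2 added), and 2 to 4 higher and 0 to 4 lower in NSF-CiHeps over C6F5UE-C6F(L)V (4 and 4 without NSF-CiHeps replicate 2, 0 lower without C6F5UE-C6F(L)V replicate 2, and 2 lower without C6F5UE-C6F(L)V replicate 1 or 3 or NSF-CiHeps replicate 1). Of all genes, 3656 of 17100 were called in C6FAE over C6F(L) without C6F(L) replicate 2. In C6FAE-C6F(L) over C6F(L) without C6F(L) replicate 3 it was 5080 of 17084. In NSF-CiHeps over C6F5UE-C6F(L)V it was 5165 of 18566 without NSF-CiHeps replicate 2 and 4955 of 18470 without C6F5UE-C6F(L)V replicate 2. With all libraries these were 3975 and 5294 of 16535 and 5288 of 18605. Without C6FAE-C6F(L) replicate 4, C6FAE-C6F(L) over MEF kept 7 of 9 calls and lost Setd6 and Setd4. Of all genes, 6672 of 16433 were then called, against 6190 of 16535 with it.

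The replicate numbers did not pair the libraries: correlations of same-numbered libraries' deviations lay between -0.04 and 0.05. With the replicate number as a block, 4 members were higher in C6FAE-C6F(L) over MEF, 3 higher in C6FAE-C6F(L) over C6FAE, 10 higher in C6F5UE-C6F(L)V over pHeps, 5 higher and 13 lower in C6F5UE-C6F(L)V over C6FAE-C6F(L), and 18 lower in pHeps over MEF, with 9 called for the difference between steps, and the other counts did not move. In the same order, 6706, 5915, 4915, 7720, 9618 and 5801 of all genes were called with the block. Without it these were 6190, 5573, 5140, 7893, 9593 and 5459, with the same genes tested. Without the filter on low counts, Dnmt3l was called lower in C6FAE-C6F(L) over C6FAE and higher in C6FAE over C6F(L). Dnmt3c had at most 4 counts in a group, too few to compare at this depth.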
